A study of Homo sapiens with 4 samples.

Results

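The chemokine genes read in MHCC-97H cells were CCL2, CCL5, CCL20, CCL28, CXCL1, CXCL2, CXCL5, CXCL8, CXCL16 and CX3CL1. They were picked by name as ligands known from tumour cells, with results of these libraries in view, and CCL28 was among them because its pattern between libraries had been seen. They are 10 of the 46 chemokine ligand genes found in the tables, which hold 58735 genes in all. RNA was sequenced from MHCC-97H, an established line of metastatic hepatocellular carcinoma (HCC) cells, labelled wild type in every group. The question was how the cells respond to migrasomes (Migs), the vesicles that grow on the retraction fibers of migrating cells. Cells received PBS or 2 µg of Migs for 24 h. The Migs came from normoxic MHCC-97H cells (normo-Migs), from hypoxic cells of that line (hypo-Migs), or from hypoxic MHCC-97H cells with a CD147 knockout (CD147KO-Migs), so CD147, a transmembrane glycoprotein encoded by BSG, was knocked out in the donor cells of 1 group and in the recipient cells of none. The labels and the supplementary methods give normoxia as the source of normo-Migs, whereas the main methods write hypoxia for that group, and the labels were followed here. Each condition had 1 library and all carried the same batch label, so condition and library cannot be told apart, and no difference given here has a replicate check.

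Chemokines are small secreted proteins that guide migrating cells along a gradient by binding G protein-coupled receptors. CXC chemokines with the ELR motif, such as CXCL1, CXCL2, CXCL5 and CXCL8, draw neutrophils and act on blood vessel growth, whereas CC chemokines mainly draw monocytes, T cells and dendritic cells. In liver tumours, ligands made by the cancer cells themselves are known to shape which leukocytes enter. Many of these genes are classical targets of the transcription factor NF-κB.

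Reads counted on genes ranged from 33882496 to 40285223 per library. CPM is reads per 1000000 after TMM scaling, whose factors ran from 0.986 to 1.02. A count of 0 allows up to 3 reads, or 0.0747 to 0.0881 CPM, and this floor is used for every fold against 0 reads. It lies below the upper limit of the exact interval of 0 reads, which is 0.107 CPM in PBS. Intervals are exact at 95%, and they cover counting error only, because no molecular identifiers are described and such reads are not independent molecules. Of the 10 chemokines, 9 had at least 10 reads in at least 1 library, as did 19895 genes in all, and these are called the tested genes, although 1 library per condition allows no test between conditions. CX3CL1 was the exception.

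The library labelled PBS stood apart from the 3 Mig libraries over the whole transcriptome, and every value set against it carries that difference. Whether this library carries the right label was not tested, so each fold against it compares a Mig library with the library labelled PBS. Between it and each Mig library, 30.2% to 30.5% of the tested genes differed at least 2-fold, against 9.12% to 9.69% between pairs of Mig libraries. At 3 reads or fewer in PBS and at least 100 in each Mig library stood 251 genes, and 13 genes had the reverse pattern. Among markers of other cell types, the 6 fibroblast or stellate genes summed to 25.2 CPM in PBS and 162 to 170 CPM in the Mig libraries. COL1A1, at 681 reads in PBS and 3472 to 4017 with Migs, made up most of each sum. All 6 were tested. Against PBS, 4 were at least 2-fold higher with each kind of Migs and 2 differed less than 2-fold. The 8 leukocyte markers summed to 0.695 CPM in PBS and 2.85 to 4.48 CPM with Migs. The pan-leukocyte gene PTPRC had 2 reads or fewer in each library and the T-cell gene CD3E had 0. Of the 8, 2 others were tested, and both were at least 2-fold higher with each kind of Migs than in PBS. The 5 endothelial markers summed to 3.42 CPM in PBS and 4.34 to 5.54 CPM with Migs. Of these, 3 were tested. Against PBS, 1 was at least 2-fold higher with each kind of Migs, and 2 were lower under normo-Migs, 1 under hypo-Migs and 1 under CD147KO-Migs. Of all tested genes, 18.1% to 18.9% were higher and 11.6% to 12.0% lower. Epithelial keratins were high throughout, and the 4 epithelial markers summed to 4140 CPM in PBS and 5587 to 6618 CPM with Migs. The hepatocyte secretory and HCC markers ALB, APOB, TTR, AFP and GPC3 were at 0 reads in all 4 libraries, while the liver transcription factor HNF4A had 134 to 246 reads. All 12 hepatocyte or HCC markers together summed to 4.98 CPM in PBS and 5.74 to 7.45 CPM with Migs. Of the 12, 6 were tested. Against PBS, 2 were at least 2-fold higher and 2 lower under normo-Migs, and likewise under hypo-Migs. Under CD147KO-Migs 3 were higher and 1 lower. The part of these differences in the chemokine values was not tested.

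Upstream sequence is shown for those chemokines higher with each kind of Migs than in PBS for which it was at hand. Most of the sequences shown share a motif at nearly the same place, which is why they are given. CCL2 and CCL5 were also higher, but no upstream sequence was at hand for them. RefSeq windows of 300 bases (GRCh38.p14), from 250 bases before to 50 after an annotated start, were at hand for 6 of the 10 genes, namely CCL20, CCL28, CXCL1, CXCL2, CXCL5 and CXCL8. The windows of CXCL8 (chr4:73740319-73740618, plus strand), CXCL1 (chr4:73869143-73869442, plus strand), CXCL5 (chr4:73998628-73998927, minus strand) and CXCL2 (chr4:74099146-74099445, minus strand) lie in 1 cluster on chromosome 4. That of CCL20 is chr2:227813592-227813891 on the plus strand. Capitals mark the NF-κB type motif GGAATTTCC in the first 4 sequences, and in CCL20 a pair of overlapping minus-strand matches to the looser motif GGNNTTNCC.
CXCL8: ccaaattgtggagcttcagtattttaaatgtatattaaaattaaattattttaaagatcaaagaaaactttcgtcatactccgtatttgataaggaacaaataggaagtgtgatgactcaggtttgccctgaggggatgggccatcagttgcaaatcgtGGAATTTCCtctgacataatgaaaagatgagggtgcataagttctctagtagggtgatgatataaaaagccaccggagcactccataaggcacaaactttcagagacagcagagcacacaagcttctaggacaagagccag
CXCL1: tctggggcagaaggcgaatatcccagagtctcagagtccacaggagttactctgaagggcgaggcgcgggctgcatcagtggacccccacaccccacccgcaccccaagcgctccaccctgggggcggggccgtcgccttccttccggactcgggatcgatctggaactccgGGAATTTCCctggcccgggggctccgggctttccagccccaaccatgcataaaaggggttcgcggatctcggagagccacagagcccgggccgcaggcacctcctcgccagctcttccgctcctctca
CXCL5: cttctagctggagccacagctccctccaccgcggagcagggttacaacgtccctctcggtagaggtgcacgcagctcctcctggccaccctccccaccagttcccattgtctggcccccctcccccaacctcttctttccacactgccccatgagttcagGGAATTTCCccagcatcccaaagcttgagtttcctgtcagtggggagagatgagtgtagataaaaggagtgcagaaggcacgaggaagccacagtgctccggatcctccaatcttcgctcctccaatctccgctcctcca
CXCL2: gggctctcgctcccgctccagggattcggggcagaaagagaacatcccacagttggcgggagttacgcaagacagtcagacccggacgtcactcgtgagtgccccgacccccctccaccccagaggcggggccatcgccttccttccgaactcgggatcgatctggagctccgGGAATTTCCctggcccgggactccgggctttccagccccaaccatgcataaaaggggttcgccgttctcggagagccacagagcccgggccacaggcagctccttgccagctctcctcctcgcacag
CCL20: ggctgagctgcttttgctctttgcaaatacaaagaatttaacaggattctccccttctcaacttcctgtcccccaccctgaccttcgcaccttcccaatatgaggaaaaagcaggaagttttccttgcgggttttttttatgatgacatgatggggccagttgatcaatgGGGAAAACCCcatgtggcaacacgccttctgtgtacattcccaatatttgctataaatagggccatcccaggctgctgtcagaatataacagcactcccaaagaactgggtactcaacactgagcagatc

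The motif GGAATTTCC, searched on both strands, was in the windows of 4 of these 6 genes. Its first base lay at -91 from the start in CXCL8, -90 in CXCL5, -78 in CXCL1 and -77 in CXCL2. Of all 35116 promoter windows of this length, 0.461% hold it. The looser GGNNTTNCC, which includes the first motif, was in 5 of the 6 genes, CCL20 being added with matches at -80 and -79, against 17.1% of all windows. The AP-1 motif TGANTCA was found in CXCL8 alone, at -137, against 7.71% of windows, and TATAAA in CXCL8 at -31 and CCL20 at -29, against 11.5%. Neither of the windows of CCL28, chr5:43412342-43412641 and chr5:43397088-43397387 on the minus strand, holds any of these 4 motifs. The windows of CXCL1 and CXCL2 were 71.9% identical (240 of 334 aligned positions), so their matches are not independent, whereas the other pairs of these 4 genes were 45.2% to 55.4% identical. A match describes the letters and no more.

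Among the ELR chemokines, CXCL5, CXCL1 and CXCL8 were far higher with Migs than in PBS, and CXCL2 less so. CXCL5 (chromosome 4, 73995642 to 73998779, hg38), which attracts neutrophils through CXCR2, had 0 reads in PBS, 961 under normo-Migs, 1424 under hypo-Migs and 1206 under CD147KO-Migs. Its levels with Migs were 28.2 CPM (26.5 to 30.0), 35.5 CPM (33.7 to 37.4) and 34.4 CPM (32.5 to 36.4) in the same order. Against the 3 reads that a count of 0 allows in PBS, CXCL5 was 325-fold higher under normo-Migs, 408-fold under hypo-Migs and 396-fold under CD147KO-Migs. The exact intervals of the same ratios had lower limits of 263, 332 and 322. PBS lay far below all the Mig libraries, which lay close to each other. In bulk RNA, a difference in the number of expressing cells and a difference in RNA per cell cannot be told apart.

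CXCL1 (chromosome 4, 73869393 to 73871242), a neutrophil attractant first known as a melanoma growth factor, had 0 reads in PBS, 358 under normo-Migs, 498 under hypo-Migs and 372 under CD147KO-Migs. The Mig libraries held 10.5, 12.4 and 10.6 CPM. Against the read floor in PBS these were 121-fold, 143-fold and 122-fold higher, with exact lower limits of 97.8, 115.7 and 98.9. CXCL8 (interleukin-8, chromosome 4, 73740506 to 73743716), the best known neutrophil attractant and a ligand of CXCR1 and CXCR2, was detected in all libraries. It had 16 reads in PBS, 317 under normo-Migs, 416 under hypo-Migs and 397 under CD147KO-Migs, or 0.464, 9.30, 10.4 and 11.3 CPM. Its ratio to PBS was 20.1 (12.2 to 35.5) under normo-Migs, 22.4 (13.6 to 39.5) with hypo-Migs and 24.5 (14.9 to 43.2) with CD147KO-Migs. CXCL8 and CXCL5 thus had the same order of PBS below Migs, but only CXCL8 was measurable in PBS.

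CXCL2 (chromosome 4, 74097035 to 74099293), the close relative of CXCL1, differed far less. It had 93 reads in PBS, 153 under normo-Migs, 193 under hypo-Migs and 127 under CD147KO-Migs. Its levels were 2.69 CPM (2.17 to 3.30), 4.49 CPM (3.81 to 5.26), 4.81 CPM (4.15 to 5.54) and 3.63 CPM (3.02 to 4.31). The intervals of PBS and CD147KO-Migs overlapped, although the ratio of these 2 libraries was 1.35 with an interval of 1.02 to 1.78. The transcripts of CXCL1 and CXCL2 share 5.73% of the 50-base stretches of CXCL1, and CXCL2 shares 4.62% of its own with CXCL3, so some reads could be placed on the wrong copy. Reads of CXCL1, CXCL2 and CXCL3 together numbered 120 in PBS, 621 under normo-Migs, 781 under hypo-Migs and 641 under CD147KO-Migs. On the log2 scale the sum was 2.37, 2.47 and 2.38 higher with Migs than in PBS, and it differed by 0.09 between hypo-Migs and either other Mig library.

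CXCL1, CXCL2, CXCL5 and CXCL8 are neighbours in a run of 9 ligand genes that spans 359 kb of chromosome 4. Of that run 5 genes had reads and 4 had none in any library, the silent ones being CXCL6, PF4V1, PF4 and PPBP. CXCL3, the remaining gene of the run and a further neutrophil attractant, had 27 reads in PBS, 110 under normo-Migs, 90 under hypo-Migs and 142 under CD147KO-Migs. Silent genes therefore sit between genes with reads, such as PF4 and PPBP between CXCL1 and CXCL5.

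**Figure D1:**
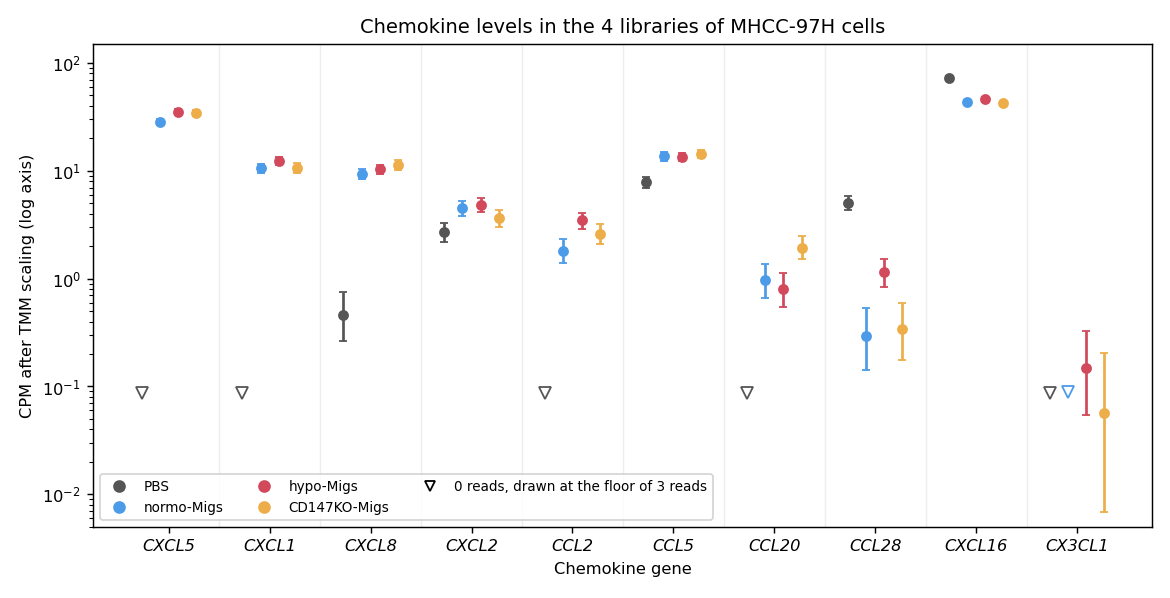
Level of each chemokine gene (x axis) in CPM after TMM scaling (y axis, log scale) in the 4 libraries, 1 point per library with its exact 95% counting interval; open triangles mark 0 reads, drawn at the floor of 3 reads. CXCL5, CXCL1, CCL2 and CCL20 had 0 reads in PBS, CXCL16 and CCL28 were highest there, and CXCL8 stood at 0.464 CPM in PBS and at 9.30 to 11.3 CPM with Migs.

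Among the CC chemokines, CCL2 and CCL20 shared the pattern of no reads in PBS, CCL5 was moderately higher with Migs, and CCL28 ran the other way. CCL2 (chromosome 17, 34255218 to 34257203), which recruits monocytes through CCR2, had 0 reads in PBS, 62 under normo-Migs, 139 under hypo-Migs and 91 under CD147KO-Migs. These are 1.82 CPM (1.40 to 2.33), 3.46 CPM (2.91 to 4.09) and 2.60 CPM (2.09 to 3.19) with Migs. Against 3 reads in PBS they were 20.9-fold, 39.8-fold and 29.9-fold higher, with exact lower limits of 16.5, 32.0 and 23.8. The CPM intervals of normo-Migs and hypo-Migs did not overlap, and CD147KO-Migs lay between them and overlapped both. CCL20 (chromosome 2, 227805739 to 227817564), which draws CCR6-bearing lymphocytes and dendritic cells, had 0 reads in PBS, 33 under normo-Migs, 32 under hypo-Migs and 68 under CD147KO-Migs. Its level was 11.1-fold, 9.17-fold and 22.3-fold above 3 reads in PBS, with exact lower limits of 8.57, 7.04 and 17.7. It was highest with CD147KO-Migs at 1.94 CPM (1.51 to 2.46).

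CCL5 (RANTES, chromosome 17, 35871491 to 35880793), a T-cell and monocyte attractant that binds CCR1 and CCR3, had 269 reads in PBS, 465 under normo-Migs, 534 under hypo-Migs and 504 under CD147KO-Migs. Levels were 7.79, 13.6, 13.3 and 14.4 CPM. The log2 fold change against PBS was 0.80 (0.59 to 1.03) under normo-Migs, 0.77 (0.56 to 0.99) with hypo-Migs and 0.88 (0.67 to 1.10) with CD147KO-Migs, short of 2-fold in each. Levels with the 3 kinds of Migs overlapped within counting error. An antisense gene over CCL5, AC015849.1, had 3 reads or fewer per library.

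CCL28 (chromosome 5, 43376645 to 43412391), a mucosal chemokine of epithelial cells that draws plasma cells and regulatory T cells through CCR10 and CCR3, is described here without a test because its pattern led to its choice. It had 175 reads in PBS, 10 under normo-Migs, 46 under hypo-Migs and 12 under CD147KO-Migs. Levels were 5.07 CPM (4.35 to 5.88), 0.294 CPM (0.141 to 0.540), 1.15 CPM (0.839 to 1.53) and 0.343 CPM (0.177 to 0.599). PBS was thus highest, hypo-Migs came second, and normo-Migs and CD147KO-Migs overlapped at the bottom. The log2 fold change against PBS was -3.88 under normo-Migs, -2.09 under hypo-Migs and -3.69 under CD147KO-Migs. Between Mig libraries CCL28 was 3.90-fold (1.94 to 8.68) higher with hypo-Migs than with normo-Migs, and 3.34-fold (1.74 to 6.94) higher than with CD147KO-Migs. These ratios rest on 10 and 12 reads in the lower libraries.

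CXCL16 and CX3CL1 are made as transmembrane proteins with a chemokine domain on a mucin stalk, and are shed by proteases. CXCL16 (chromosome 17, 4733526 to 4739922), a scavenger receptor and ligand of CXCR6, had 2498 reads in PBS, 1483 under normo-Migs, 1846 under hypo-Migs and 1486 under CD147KO-Migs. Its 72.4 CPM (69.6 to 75.3) in PBS stood above 43.5 CPM (41.3 to 45.8), 46.0 CPM (43.9 to 48.1) and 42.4 CPM (40.3 to 44.6) with Migs, whose intervals overlapped. Log2 fold changes against PBS were -0.73, -0.65 and -0.77. CXCL16 overlaps MED11 on the other strand, which had 223 to 410 reads, and the handling of strands in counting is not given in the sources used here. CX3CL1 (fractalkine, chromosome 16, 57372458 to 57385048) had 0 reads in PBS and under normo-Migs, 6 under hypo-Migs and 2 under CD147KO-Migs, which is too few for a comparison.

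In counts over the 9 tested chemokines, PBS lay below all 3 Mig libraries for 7, namely CCL2, CCL5, CCL20, CXCL1, CXCL2, CXCL5 and CXCL8, where 42.7% of all tested genes did so. It lay above all 3 for CCL28 and CXCL16, against 39.3% of all tested genes. At 2-fold, 6 of 9 differed between each Mig library and PBS, with CCL2, CCL20, CXCL1, CXCL5 and CXCL8 higher with Migs and CCL28 lower. The background was 30.2% of tested genes under normo-Migs, 30.5% under hypo-Migs and 30.3% under CD147KO-Migs. In the higher direction alone it was 18.1%, 18.9% and 18.3%, and in the lower direction 12.0%, 11.6% and 12.0%. The median log2 fold change of the 9 was 4.17 under normo-Migs, 3.94 under hypo-Migs and 4.46 under CD147KO-Migs, while that of all tested genes was 0.03, 0.04 and 0.03. With the genes at 0 in PBS set to their folds against 3 reads, the medians of the 9 became 3.48, 3.20 and 4.46. CCL2, CCL20, CXCL1 and CXCL5 had 0 reads in PBS and passed the filter through the Mig libraries alone. PBS could not lie above a Mig library for these genes, and they had to differ from it. The 7 with PBS below all 3 Mig libraries, the 6 of 9 and the medians are therefore in part set by the filter. With 10 reads required of each library, 5 chemokines remained and 2 of them, CCL28 and CXCL8, differed 2-fold, against 17.9% to 18.4% of all genes so filtered. Of these 2, CCL28 was chosen for its pattern. All 3 comparisons share the 1 PBS library, so they do not repeat each other independently, and the choice of genes was made with these values known.

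Per gene length, on the authors' FPKM scale, levels can be ordered between genes. CXCL16 was the highest of the 10 in every library, at 25.9 FPKM in PBS and 15.0 to 16.3 FPKM with Migs. In PBS, CCL5 (5.14 FPKM), CXCL2 (1.79), CCL28 (1.12) and CXCL8 (0.203) followed, and no neighbours in that order overlapped in their counting intervals. With Migs, CXCL5 took second place at 11.0 to 13.9 FPKM, and CCL5 and CXCL1 came next with intervals that overlapped in all 3 Mig libraries. CXCL8, at 4.06 to 4.94 FPKM, and CXCL2, at 2.39 to 3.18 FPKM, followed. CCL2 and CCL20 overlapped with normo-Migs and CD147KO-Migs but not with hypo-Migs, where CCL2 stood at 1.73 FPKM and CCL20 at 0.496. CCL28 was last but one in the Mig libraries where CX3CL1 was detected.

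The FPKM of all 46 ligand genes summed to 42.8 in PBS, 57.0 under normo-Migs, 63.9 under hypo-Migs and 61.5 under CD147KO-Migs. The 10 chemokines made up 79.8% of that sum in PBS and 90.9% to 91.7% with Migs. ELR ligands (CXCL1, CXCL2, CXCL3, CXCL5, CXCL6, CXCL8 and PPBP) took 5.49% in PBS, 48.2% under normo-Migs, 50.1% under hypo-Migs and 49.9% under CD147KO-Migs. CXCL16 went from 60.5% in PBS to 24.4% to 27.1% with Migs. A ligand outside the 10, the eosinophil attractant CCL26, took 17.6% in PBS on 184 reads and had 0, 3 and 6 reads with normo-Migs, hypo-Migs and CD147KO-Migs. Of the 46 ligand genes, 15 reached 10 reads in some library and 22 had none in any.

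**Figure D2:**
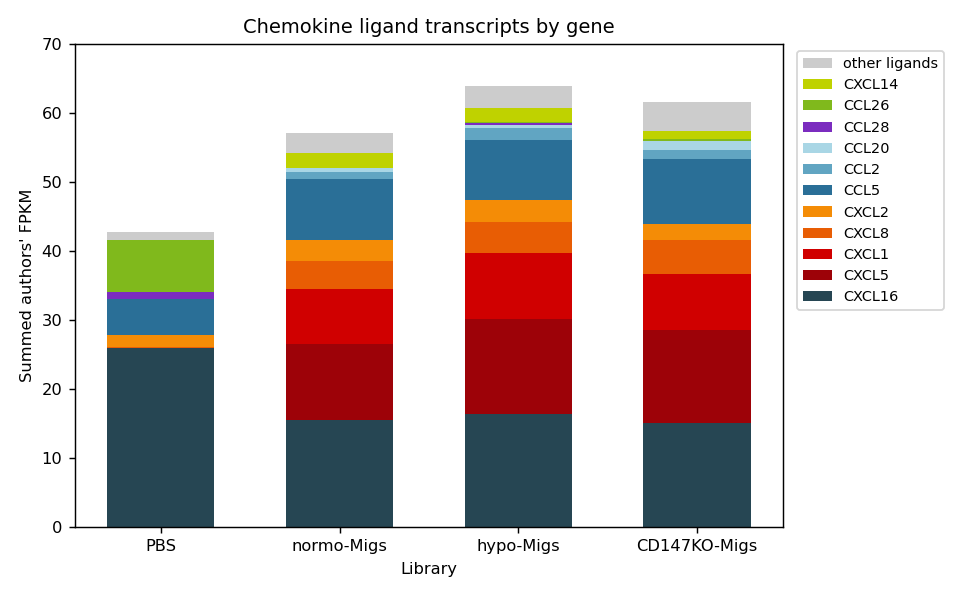
Summed authors' FPKM of 46 chemokine ligand genes (y axis) in each library (x axis), with the part of each gene stacked by colour, 1 library per bar and so no error bar. CXCL16 is the largest part of every bar, at 60.5% in PBS, and the red and orange ELR ligands fill 48.2% to 50.1% of the sum with Migs.

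The comparisons that do not use PBS are those between kinds of Migs, and there most chemokines were close. By their labels, the hypo-Migs and normo-Migs libraries differ in the oxygen given to the donor cells, and 1 of the 9 differed at least 2-fold between them, CCL28, where 9.34% of all tested genes did so. That share comes from the contrast in which CCL28 was noticed, and nothing is read from it. Below that limit, CCL2 was 0.91 higher on the log2 scale with hypo-Migs (0.49 to 1.38) and CXCL5 was 0.33 higher (0.21 to 0.45). CXCL1 differed by 0.24 (0.04 to 0.44), and the intervals of CCL5, CCL20, CXCL2, CXCL8 and CXCL16 included equal levels. The median of the 9, with CCL28 among them, was 0.15, and that of all tested genes 0.00.

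The hypo-Migs and CD147KO-Migs libraries differ, by their labels, in CD147 in the donor cells. The paper names a different supplier for the knockout line than for MHCC-97H, so line history and CD147 cannot be told apart. Of the 9 chemokines, 2 differed at least 2-fold between these libraries, against 9.12% of all tested genes. CCL28, 1 of the 2, was chosen for its pattern, and of the other 8 chemokines 1 differed 2-fold. CCL28 was 1.59 higher with hypo-Migs on the log2 scale (0.80 to 2.79), and CCL20 differed in the other direction, at -1.23 (-1.94 to -0.66). CCL2 and CXCL2 were 0.41 and 0.40 higher with hypo-Migs, with intervals of 0.02 to 0.81 and 0.08 to 0.74. CXCL5 differed by 0.04 (-0.07 to 0.16) and CXCL8 by -0.13 (-0.33 to 0.07). The median of the 9, with CCL28 among them, was 0.12, beside 0.00 for all tested genes. Between normo-Migs and CD147KO-Migs none of the 9 differed at least 2-fold, where 9.69% of all tested genes did. CCL20 came nearest at -0.96 (-1.65 to -0.38), CCL2 differed by -0.50, and CXCL5 and CXCL8 by -0.29 and -0.28. The median was -0.19, which is the value of CCL28 itself, beside 0.00 for all tested genes. All 3 pairs draw on the same 3 libraries.

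Genes with few reads differ more between any 2 libraries, so each chemokine was set beside all tested genes with a similar mean of reads in the pair. CCL28 is left out of the counts, since its pattern led to its choice, but of the genes at its mean of 10 to 30 reads, 23.4% differed at least 2-fold between hypo-Migs and normo-Migs. In that pair, 2 of the other 8 chemokines lay outside the central 90% of such genes, CCL2 and CXCL5. For CCL2, at a mean of 100.5 reads, genes with 100 to 300 reads spanned -0.48 to 0.52, but those with 30 to 100 reads spanned -0.82 to 0.93, a range that holds the CCL2 value of 0.91. For CXCL5 the range was -0.20 to 0.19, at 1000 to 3000 reads. For hypo-Migs against CD147KO-Migs, CCL20 alone lay outside, 1 of 8. Between normo-Migs and CD147KO-Migs, CCL20 and CXCL5 did, 2 of 8. There CCL20 was only just outside, at -0.96 beside a lower end of -0.92. For CXCL5, at a mean of 1083.5 reads in that pair, genes with 300 to 1000 reads spanned -0.33 to 0.28. That range holds its value of -0.29. CXCL1, CXCL2, CXCL8, CXCL16 and CCL5 lay inside the range of similar genes in all 3 pairs.

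**Figure D3:**
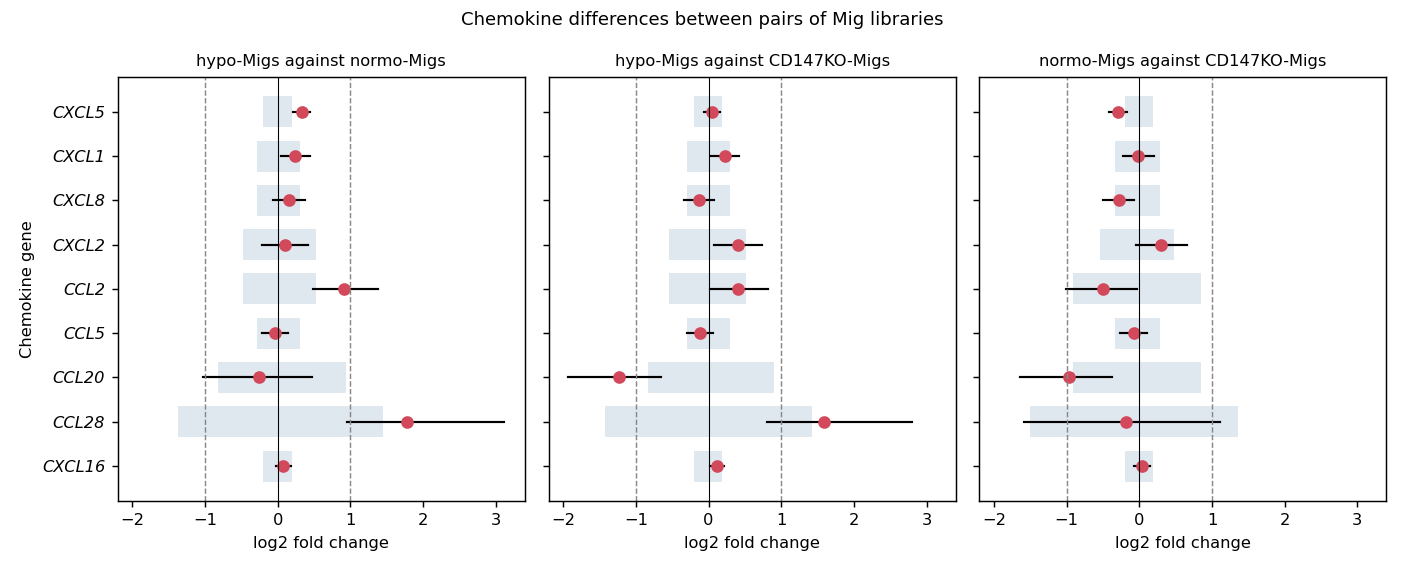
Log2 fold change (x axis) of each tested chemokine (y axis) in the 3 pairs of Mig libraries, with points for the value, black lines for the exact 95% counting interval of the ratio, grey blocks for the central 90% of all tested genes with a similar mean of reads, and dashed lines at 2-fold. CCL20 lies to the left of its block in the panels against CD147KO-Migs, CCL28 (chosen for its pattern) has the widest intervals, and CXCL1, CXCL2, CXCL8, CXCL16 and CCL5 stay inside theirs.

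Genes with a pattern like a chemokine were found by the distance of centred log2 CPM over the 4 libraries, among 14439 genes with at least 50 reads in some library. The 5 nearest to CCL28 were EIF3CL (distance 0.333), LINC00887 (0.437), PIP5K1B (0.471), LINC02395 (0.477) and PLAG1 (0.483). EIF3CL, a near-identical copy of the translation initiation gene EIF3C and therefore uncertain in its reads, had 1416 reads in PBS, 178 under normo-Migs, 544 under hypo-Migs and 173 under CD147KO-Migs. For CXCL16, the chemokine with the highest mean CPM, the nearest were YEATS2 (0.0106), ZNF280B (0.0145) and WDR53 (0.0149). With 4 libraries, and with 10 to 46 reads of CCL28 where CXCL16 had 1483 to 1846, these distances are a description and are not compared between the 2 chemokines.

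Receptors were read next, to see which signals the cells themselves could receive. Those of the ELR ligands were at or near 0, with CXCR1 at 0 in all 4 libraries and CXCR2 at 2 reads in PBS and 0 with Migs. CCR2 and CCR6, the receptors of CCL2 and CCL20, had 0 reads in every library. CCR1 had 12 reads with hypo-Migs, 7 with CD147KO-Migs and 0 otherwise, and CCR3 had 0 reads in PBS, 9 under normo-Migs, 21 under hypo-Migs and 14 under CD147KO-Migs. CCR10, a CCL28 receptor, had 38 reads in PBS, 128 under normo-Migs, 116 under hypo-Migs and 119 under CD147KO-Migs, the opposite order of PBS and Migs to its ligand. CXCR6, the receptor of CXCL16, had 36, 23, 34 and 7 reads in the same order of libraries, lowest with CD147KO-Migs. CX3CR1 had 2 reads with hypo-Migs and none elsewhere. These receptors were named as partners of the chemokines, after their values were seen.

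Over the whole receptor list, 9 of the 18 genes had no reads in any library and 6 were tested. Against PBS, 3 of the 6 were at least 2-fold higher with normo-Migs, and 5 of the 6 under hypo-Migs or CD147KO-Migs. Only under CD147KO-Migs was 1 of them at least 2-fold lower, CXCR6. Of all tested genes, 18.1% to 18.9% were higher and 11.6% to 12.0% lower. CCR1 and CCR3 had 0 reads in PBS and passed the filter through Mig libraries alone, so the filter in part set these counts. CXCR4, the receptor of CXCL12, was the highest of the receptors, at 1421 reads in PBS, 3749 under normo-Migs, 4617 under hypo-Migs and 3967 under CD147KO-Migs. Its log2 fold changes against PBS were 1.42, 1.48 and 1.46. Its ligand gene CXCL12 had 0 reads in all 4 libraries. The scavenging receptor ACKR3 had 621 reads in PBS, 417 under normo-Migs, 532 under hypo-Migs and 413 under CD147KO-Migs.

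**Figure D4:**
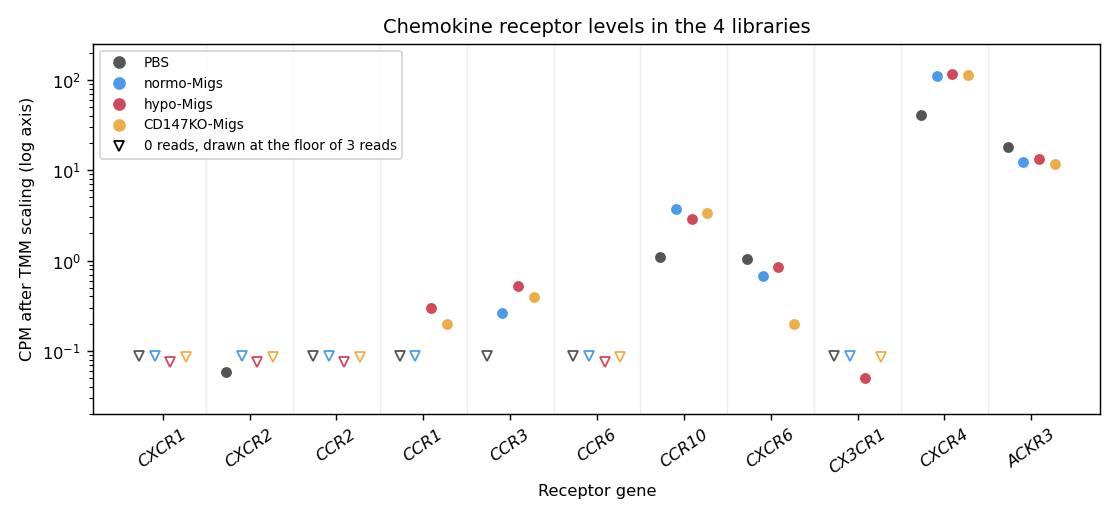
Level of receptor genes (x axis) in CPM after TMM scaling (y axis, log scale), 1 point per library, with open triangles for 0 reads drawn at the floor of 3 reads. CXCR1, CCR2 and CCR6 hold only triangles, whereas CXCR4 has 1421 reads in PBS and 3749 to 4617 with Migs.

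Proteases cut chemokines loose or change their activity. ADAM10, the sheddase of resting CXCL16 and CX3CL1, had 5881 reads in PBS, 4860 under normo-Migs, 5756 under hypo-Migs and 4750 under CD147KO-Migs, and ADAM17, the inducible one, had 1530, 1529, 1868 and 1447. Neither differed 2-fold in any pair. Of 10 tested proteases, 5 were at least 2-fold higher with normo-Migs than in PBS and 6 with hypo-Migs or CD147KO-Migs, and none was lower. The shares of all tested genes were 18.1% to 18.9% higher and 11.6% to 12.0% lower. Among the higher ones, ANPEP, DPP4, ELANE, MMP2, MMP7 and MMP13 had 6 reads or fewer in PBS. They passed the filter through Mig libraries alone, so the filter in part set these counts. ANPEP, an aminopeptidase that trims chemokine ends, had 0 reads in PBS, 3615 under normo-Migs, 3541 under hypo-Migs and 2668 under CD147KO-Migs. MMP2, a gelatinase that clips several chemokines, had 6, 3272, 3515 and 2836 reads in that order, and MMP7 had 5, 130, 123 and 95.

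The NF-κB pathway, which is known to drive many of these genes, was read from 25 subunit, kinase and inhibitor genes, all tested. None differed 2-fold in any pair of Mig libraries. Against PBS, 18.1% to 18.9% of all tested genes were at least 2-fold higher and 11.6% to 12.0% lower. Of the 25 genes, 1 was higher with each kind of Migs, and 2 were lower under normo-Migs or hypo-Migs and 3 under CD147KO-Migs. NFKBIA, an inhibitor that is itself an NF-κB target, was the higher one, at 1754 reads in PBS, 4694 under normo-Migs, 5916 under hypo-Migs and 5422 under CD147KO-Migs. BIRC3, an inhibitor of apoptosis and also an NF-κB target, went the other way with 6988, 534, 704 and 623 reads, and CYLD, a deubiquitinase that restrains the pathway, had 2007, 962, 983 and 871. The median log2 fold change of the 25 genes against PBS was -0.25, -0.27 and -0.18. Most of the 25 genes differed less than 2-fold from PBS. Their RNA levels do not measure the activity of the pathway, which was not tested.

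Receptors that feed NF-κB had 15 tested genes of 16, of which 5 were at least 2-fold higher with each kind of Migs than in PBS and none lower. Beside this list and those below, 18.1% to 18.9% of all tested genes were higher and 11.6% to 12.0% lower. CD40 and TNFRSF1B passed the filter through Mig libraries alone, so the filter in part set this count. CD40 had 0 reads in PBS, 259 under normo-Migs, 321 under hypo-Migs and 221 under CD147KO-Migs. The TNF receptor TNFRSF1B had 0, 237, 258 and 207 reads, and the endotoxin receptor TLR4 had 16, 324, 398 and 405, close to the reads of CXCL8. None of the 15 differed 2-fold between Mig libraries. Of 12 AP-1 and C/EBP genes, none differed 2-fold between Mig libraries. Against PBS, 0, 1 and 2 of them were higher under normo-Migs, hypo-Migs and CD147KO-Migs, and 2, 2 and 1 were lower, FOSL1 being lower with all Migs (1500, 413, 462 and 427 reads). Of 10 interferon regulatory factor and STAT genes, IRF1 was at least 2-fold higher with all Migs (422, 918, 1187 and 1050 reads) and IRF3 was lower (4639, 2118, 2342 and 2121 reads).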

How the data were processed

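Total RNA of MHCC-97H cells was sequenced, with 1 library for each of 4 conditions. The authors deposited raw counts of reads per gene, not normalized, and FPKM, in which they corrected reads for gene length and depth. The submitters' processing notes name CASAVA 1.8, fastp, HISAT2 2.0.5, featureCounts 1.5.0-p3 and hg38. The handling of strands is not given in the sources used here. Libraries held 33882496 to 40285223 reads on genes, and groups followed the labels.

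Counts were scaled by TMM in edgeR 4.0.16 (R 4.3.3), with a prior count of 2 in log2 fold changes. A gene was kept where any library had 10 reads or more, which left 19895 of 58735. With 1 library per condition no test of conditions is possible, so no p-value is given. An absolute log2 fold change of 1 or more was called 2-fold. Levels had exact Poisson and ratios exact binomial intervals at 95%. For a gene at 0, folds were computed against 3 reads per library. The procedure was tested on simulated data. Alternatives concerned scaling (DESeq2 1.42.0 size factors, total reads), filter, prior count, FPKM with 0.1 added, and call rule. Python 3.11.15, numpy 2.4.6, pandas 2.3.3 and matplotlib 3.10.9 made tables and plots.

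The 10 chemokines and all gene lists were chosen with earlier results of these data known. Named from the lists were up to 4 genes per list and pair that differed 2-fold with at least 50 reads in either library, and genes bound to a chemokine by function, which were chosen after their values were seen. For likeness, the nearest 5 genes to CCL28 and the nearest 3 to the chemokine with the highest mean CPM were named. Promoter windows came from RefSeq, GRCh38.p14, and motifs were searched on both strands.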

Additional observations from a re-analysis of the deposited data

How the results depend on the processing

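With 1 library per condition, no replicate could be left out and no difference between conditions has a measured error. No paired analysis was possible because each condition has 1 library, which leaves a single library per group to pair. Depth limited CCL20, CCL28 and CX3CL1 most. Counts of chemokines that differed 2-fold moved only with the filter or the limit. Without a filter on reads, CX3CL1 was added, giving 2 of 10 for hypo-Migs against normo-Migs (16.4% of all genes) and 1 of 10 for normo-Migs against CD147KO-Migs (19.1%), and 7 of 10 for hypo-Migs (31.0%) and CD147KO-Migs (34.6%) against PBS. At 1.5-fold the counts of the first 2 pairs were 2 and 1 of 9, against 18.2% and 18.5% of tested genes, and those against PBS were 9, 9 and 8 of 9 for normo-Migs, hypo-Migs and CD147KO-Migs, against 48.3%, 48.7% and 48.8%. Where each of the 4 libraries had to hold 10 reads, 5 chemokines were tested. That left 1 (CCL28) for hypo-Migs against CD147KO-Migs (1.56% of all genes). It left 2 (CCL28 and CXCL8) for each Mig library against PBS (17.9% to 18.4%). CCL28 was chosen for its pattern, so nothing is read from the counts that include it. Of 372 single values, 352 moved by less than their counting interval. No value past 2-fold changed sign, but CXCL2 in normo-Migs against CD147KO-Migs went from 0.30 to -0.0060 when the copies were summed. The 20 that moved were 14 on the FPKM scale with 0.1 added, where genes at 0 or near it gave smaller folds (CXCL5 with normo-Migs against PBS 6.80 in place of 8.99), and 6 where CXCL1, CXCL2 and CXCL3 were summed. That sum, and the setting with both scaling and filter taken without the PBS library, were chosen after seeing the data. Scaling alone without the PBS library was planned.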

Other observations

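Ligands and cytokines outside the 10 chemokines also differed between libraries, and they are given here as values. CXCL14, an epithelial chemokine, had 0 reads in PBS, 149 under normo-Migs, 162 under hypo-Migs and 88 under CD147KO-Migs. Against 3 reads in PBS these are 50.3-fold, 46.4-fold and 28.9-fold higher. The exact lower limits on the log2 scale were 5.34, 5.22 and 4.52. CXCL10, the interferon-induced attractant of T cells, had 16, 25, 64 and 48 reads in that order, 1.06 higher on the log2 scale with hypo-Migs than with normo-Migs.

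Of 16 tested cytokine and adhesion genes that NF-κB is known to induce, 5 were at least 2-fold higher than in PBS with each kind of Migs. Lower were 5 with normo-Migs and 4 with hypo-Migs or CD147KO-Migs. Of all tested genes, 18.1% to 18.9% were higher and 11.6% to 12.0% lower. IL6 passed the filter through Mig libraries alone. CSF1, the macrophage growth factor, had 31 reads in PBS, 1946 under normo-Migs, 2375 under hypo-Migs and 2217 under CD147KO-Migs. IL6, an acute-phase cytokine, had 0, 110, 181 and 180 reads, and the acute-phase gene SAA1 had 20, 241, 171 and 307. IL32 and LCN2 ran the other way, at 487 and 415 reads in PBS, 53 and 69 under normo-Migs, 42 and 140 under hypo-Migs and 52 and 86 under CD147KO-Migs. IL11, a cytokine of the IL6 family, had 18, 119, 69 and 48 reads and was 1.31 higher on the log2 scale with normo-Migs than with CD147KO-Migs. The median log2 fold changes of the list against PBS were -0.12, -0.09 and -0.19.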
